A study of Saccharomyces cerevisiae with 26 samples.

Results

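The genes described here are 40 genes of Saccharomyces cerevisiae through which the cell takes up and breaks down nitrogen compounds. They encode amino acid permeases, transporters for ammonium, allantoin, urea and peptides, enzymes that release nitrogen from amino acids and allantoin, and the regulators of these genes. The list of names uses no measured value as a rule, though it was drawn up with earlier results of these data known. All 40 had a spot on the array, of 5606 genes in all. The study followed chemostat cultures growing on galactose after a passing addition of glucose, either 2 g/l (the large pulse, 14 arrays, 3 to 240 min) or 0.2 g/l (the small pulse, 12 arrays, 2 to 150 min). Each array held the culture at t=0 in the Cy3 channel and the culture at 1 time after the addition in the Cy5 channel, so every value is a log2 ratio of a time to t=0. Per the labels both channels held total RNA. The strain, its genotype and the nitrogen source of the medium are not stated in the labels, nor is whether the arrays of a pulse shared 1 t=0 extract.

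Each time was measured once, on 1 array, with no dye exchange, and the labels name no replicate culture. Arrays were therefore put together by pulse and time. After the large pulse the early window (3 to 10 min) had 4 arrays, the middle window (15 to 45 min) 4, the late window (90 to 150 min) 3 and the last window (180 to 240 min) 3. In the small pulse the early window (2 to 10 min) had 5 arrays, the middle window 4 and the late window 3. An SD below is the spread between the times of a window, so a gene that moves within a window has a large one. The p values are from limma with Benjamini-Hochberg adjustment over 5372 genes, called under 0.05. They rest on the spread within windows, pooled over all 7 windows and moderated across genes with eBayes. The SD printed beside a p value is thus not the spread that the p value used. Tests against t=0 leave out the spread of the t=0 sample itself. Glucose dose and culture cannot be told apart, and in these whole-culture samples a fall of a transcript in every cell and a smaller share of the cells that carry it cannot be told apart either.

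Between 7627 and 9765 of 10752 spots had a value per array, and 0.07% to 8.95% of the genes had none. The share without a value was highest for the small pulse at 30 min (8.95%), 15 min (8.31%) and 45 min (6.62%) and the large pulse at 10 min (6.85%). Correlation across genes with the mean of the other arrays of the window was lowest for the small pulse at 45 min (r = 0.123), 30 min (0.365) and 90 min (0.443). The direction of the ratio was taken from the dye labels and the log2 scale from the values, since the files name neither; the median of all genes per array lay between -0.107 and 0.1, and how the authors centred the arrays stays unknown. GAL1, for galactokinase, lay between -3.46 and -2.26 in the middle window of the large pulse. Of the 40 genes, 28 had a value on every array. HIP1 (19 values), SSY1 (13) and DAL7 (23) had too few values in at least 1 window and were not tested, which left 37.

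Yeast controls these genes at several levels. With a good nitrogen source, nitrogen catabolite repression keeps genes for poor sources off: the cytoplasmic protein Ure2 holds back the GATA activator Gln3, a second activator, Gat1, is restrained too, and the GATA repressors Dal80 and Gzf3 compete for the same promoter sites. A separate circuit, the SPS sensor at the plasma membrane (Ssy1, Ptr3 and Ssy5), detects amino acids outside the cell and turns on a set of permease genes through the factors Stp1 and Stp2. Carbon source acts on some of them as well, since the carbon skeletons of proline, arginine, glutamate and 4-aminobutyrate feed into the TCA cycle.

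Genes of the list were called in both directions in 6 of the 7 windows. In the early window of the large pulse, 13 of 37 were called, 6 higher and 7 lower (35.1%), against 37.6% of all genes (16.8% higher and 20.8% lower). Of the 37, 20 were called in the middle window, 11 higher and 9 lower (54.1%), against 43.8% of all genes (21.7% and 22.1%). In the late window 5 were called, 1 higher and 4 lower, against 14.5% of all genes (9.03% and 5.51%), and in the last window 5, 2 higher and 3 lower, against 8.38% (5.96% and 2.42%). Following the small pulse the early window had 8 calls, 3 higher and 5 lower (21.6%), against 29.8% of all genes (18.1% and 11.7%). Its middle window had 19, 3 higher and 16 lower (51.4%), against 39.5% (15.1% and 24.4%). In its late window limma called 0 of 37, with 8 at an unadjusted p under 0.05, against 7.54% of all genes (3.61% and 3.93%). Altogether 32 of the 37 genes were called in at least 1 window. The share of all genes called in at least 1 of the 7 windows was not worked out, so this count is not read as particular to the list.

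The count for the early window of the large pulse was 1 (BAP3) with only its own 4 arrays in the fit, 4 without the array of 10 min and 6 without that of 7 min. That for its last window was 0 to 2 without any of its 3 arrays. Other settings raised the low counts: with quantile normalization or array weights the late window of the large pulse had 11 or 19 calls and its last window 13 or 10. The late window of the small pulse then had 9 or 10 in place of 0. Under both settings the shares of all genes called in these windows rose as well, so the higher counts are not read as particular to the 37 genes. The count for the middle window of the small pulse rests on the spread shared with the other windows. With only its own 4 arrays in the fit limma called 0 of 37 (0.0372% of all genes). Every call quoted from that window below, of the 37 genes or of the other nitrogen genes, ended in that fit. With quantile normalization TAT1, DIP5, UGA4, AGP2, ALP1, DUR3, DAL2 and DAL80 lost their calls in that window. Without the arrays of 0.2 g/l at 30, 45 and 90 min, which stood apart, the count there was 22, given without the share of all genes in that fit. Of 78 calls of a gene in a comparison, 23 were kept under every alternative run. In the middle window of the large pulse these were AGP1, BAP3, GNP1, AGP2, AGP3, ALP1, MEP2, MEP3, PUT1, UGA1, UGA2, CAR2 and GZF3, and in its late window ALP1, DUR3 and GLN3. In the early window of the small pulse they were GNP1, DIP5, AGP2, LYP1, GAT1, GLN3 and GZF3.

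**Figure D1:**
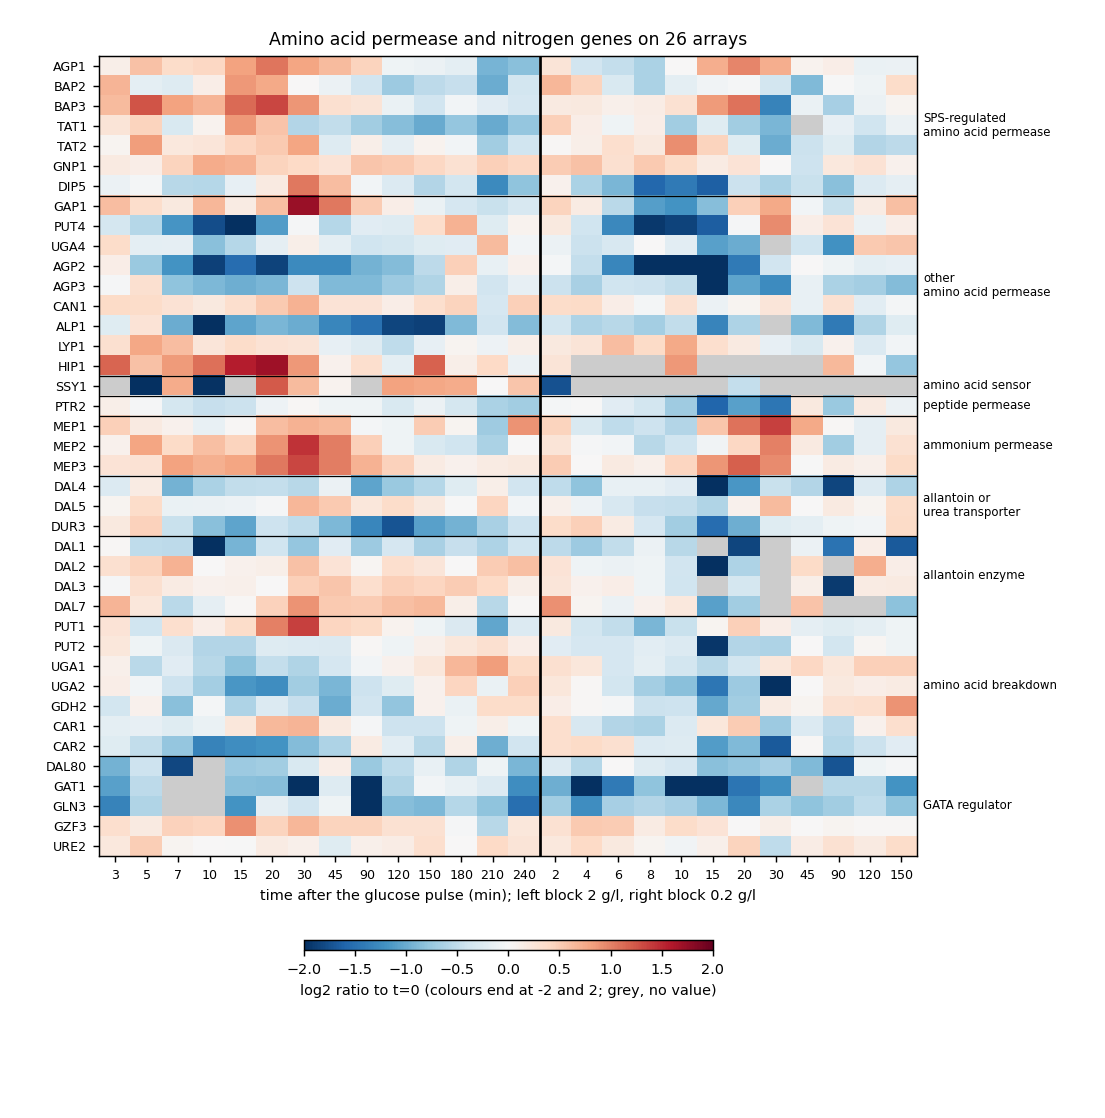
Log2 ratio to t=0 (colour) of each of the 40 genes (rows, by class) on each of the 26 arrays (columns, by min after the pulse). PUT4 and AGP2 are dark blue around 10 to 15 min in both blocks, the ammonium permease genes are red around 30 min, and GAT1 and GLN3 are blue on every array with a value.

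Among the amino acid permeases, PUT4 and AGP2 fell in the first minutes after both pulses. PUT4, for the high-affinity proline permease, was at -0.35, -0.57, -1.18 and -1.78 at 3, 5, 7 and 10 min after the large pulse, and at -2.02, -1.12, -0.03 and -0.57 at 15, 20, 30 and 45 min. For the small pulse it was at 0.20, -0.40, -1.29, -1.93 and -1.85 at 2, 4, 6, 8 and 10 min, and at -1.65, -0.03, 0.94 and 0.14 at 15, 20, 30 and 45 min. The low values thus lay between 6 and 20 min, and the gene was back near t=0 at 20 min after the small pulse and at 30 min after the large one. PUT4 was lower in the early windows (mean -0.97 ± 0.64 SD, n = 4 arrays, adjusted p = 0.0373 after the large pulse, and -1.06 ± 0.93, n = 5, 0.017 after the small pulse). It was also lower in the middle window of the large pulse (-0.94 ± 0.85, n = 4, 0.039). These 3 calls depended on single arrays. The first ended without 7 min (adjusted p = 0.123) or 10 min (0.231). The second ended without 6 min (0.0579), 8 min (0.104) or 10 min (0.0994), and the third ended without 15 min (0.285), 20 min (0.119) or 45 min (0.0509).

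AGP2, for a plasma membrane protein known for carnitine transport and for a part in the regulation of polyamine uptake, stayed low for longer after the large pulse. It was at 0.14, -0.74, -1.20 and -1.86 at 3, 5, 7 and 10 min, at -1.53, -1.85, -1.28 and -1.27 at 15, 20, 30 and 45 min, and at -0.94, -0.86 and -0.53 at 90, 120 and 150 min. Under the small pulse the early values were -0.04, -0.48, -1.30, -2.16 and -2.04, and those from 15 to 45 min were -2.03, -1.41, -0.38 and 0.00. The values of the pulses lay close up to 10 min. At 30 and 45 min AGP2 was close to t=0 after 0.2 g/l and not after 2 g/l. Those 0.2 g/l arrays correlated weakly with the others of their window (r = 0.365 and 0.123). No difference between the pulses was called for AGP2. The middle window mean of the large pulse was -1.48 ± 0.27 (SD, n = 4, adjusted p = 0.000726), and the call held without any single array, as did the early call after the small pulse (-1.20 ± 0.94, n = 5, 0.00345). Over 8 shared times AGP2 was higher after the large pulse at 2. The early call after the large pulse (-0.91 ± 0.84, n = 4, adjusted p = 0.0283) ended without 5 min (0.0503), 7 min (0.114) or 10 min (0.238). The middle call after the small pulse (-0.95 ± 0.93, n = 4, 0.0227) ended without 15 min (0.192) or 20 min (0.112).

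AGP3 and ALP1 were also low, with other time courses. AGP3, for a low-affinity amino acid permease, was at -0.97, -0.91, -0.42 and -0.88 in the middle window of the large pulse (mean -0.80 ± 0.25 SD, n = 4 arrays, adjusted p = 0.00567). In that of the small pulse AGP3 was at -2.41, -1.06, -1.26 and -0.15 (-1.22 ± 0.93, n = 4, adjusted p = 0.000356), and both calls held without any single array. ALP1, a paralog of the arginine permease gene CAN1, was lowest in the late window of the large pulse, at -1.50, -1.84 and -1.86 at 90, 120 and 150 min (mean -1.73 ± 0.20 SD, n = 3 arrays, adjusted p = 0.000328). It was at -1.06 ± 0.17 in the middle window (n = 4, adjusted p = 0.00167), and neither call was lost without any single array. Its early mean after the large pulse (-0.81 ± 1.10, n = 4, adjusted p = 0.0146) leaned on the value of -2.27 at 10 min and was not called without it (-0.32, adjusted p = 0.266) or without 7 min (-0.75, 0.0673). In the middle window of the small pulse ALP1 was at -0.94 ± 0.35 (n = 3, adjusted p = 0.0147), but adjusted p = 0.113 without 15 min. CAN1 itself, and LYP1, for the lysine permease, which lies close to ALP1 on chromosome XIV with 1 gene between, went the other way. LYP1 was higher in both early windows (0.49 ± 0.25, n = 4, adjusted p = 0.00333, and 0.44 ± 0.24, n = 5, 0.00403), with every array above 0. CAN1 was higher in the middle window of the large pulse (0.45 ± 0.19, n = 4, adjusted p = 0.00333, and 0.0587 with quantile normalization). The early call of CAN1 after the large pulse (0.31 ± 0.09, n = 4, adjusted p = 0.0417) ended without any of the arrays of 3 min (0.119), 5 min (0.106), 7 min (0.0964) or 10 min (0.0722).

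**Figure D2:**
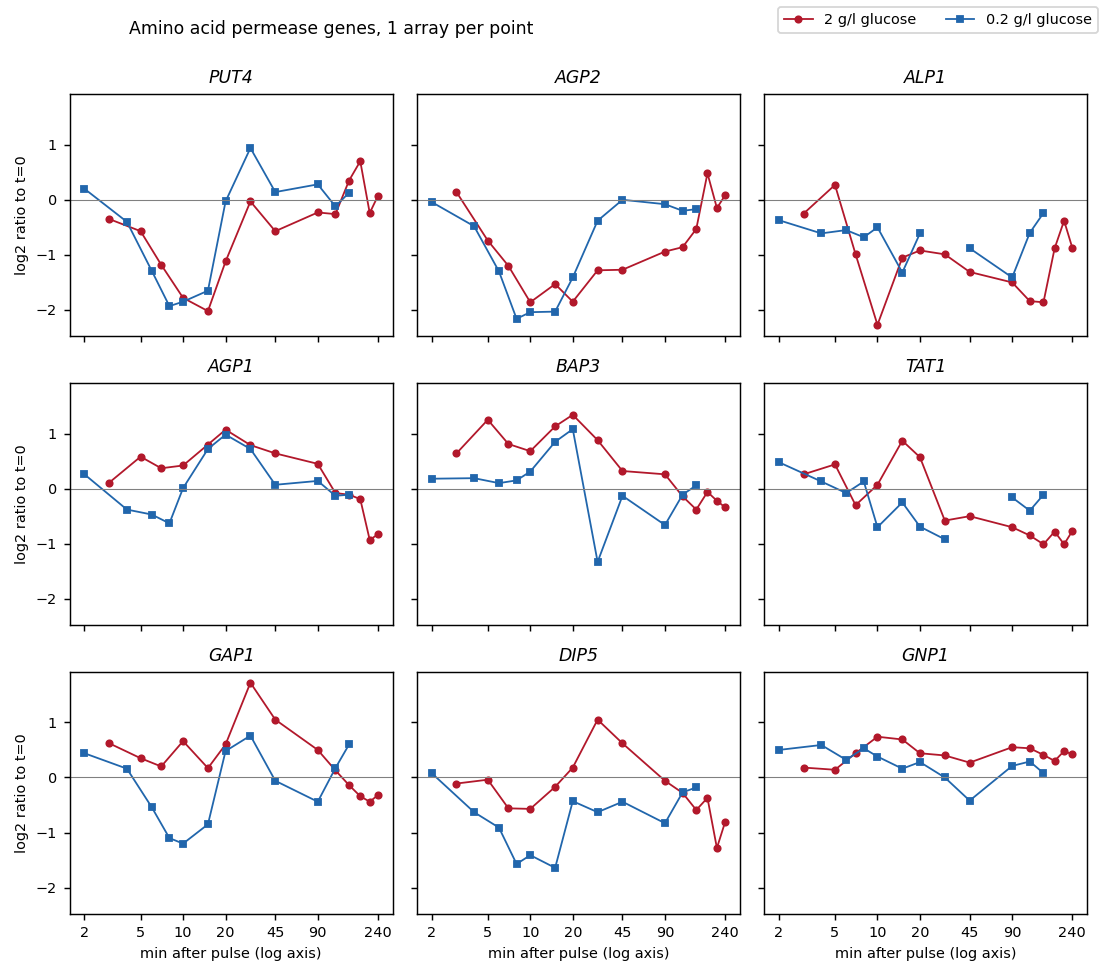
Log2 ratio to t=0 of 9 amino acid permease genes against min after the pulse (log axis), 1 array per point, circles 2 g/l and squares 0.2 g/l, with gaps where a value is missing. PUT4 and AGP2 dip to about -2 after both pulses, while AGP1 and BAP3 rise to about 1 at 20 min.

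The permease genes known as targets of the SPS sensor were split. AGP1, for a broad-range permease for asparagine, glutamine and other amino acids, was at 0.80, 1.07, 0.79 and 0.64 in the middle window of the large pulse (mean 0.83 ± 0.18 SD, n = 4 arrays, adjusted p = 0.000162). In that of the small pulse AGP1 was at 0.72, 0.98, 0.72 and 0.07 (0.62 ± 0.39, n = 4, adjusted p = 0.00339). Both series peaked at 20 min, and both calls held without any single array. In the early window of the small pulse AGP1 had values of 0.26, -0.38, -0.47, -0.63 and 0.01. The step from there to the middle window was called (0.86 ± 0.20, SE, adjusted p = 0.0171), though not without 6 min (0.0503) or 20 min (0.0538). In the last window of the large pulse it was lower, at -0.19, -0.93 and -0.83 (-0.65 ± 0.40, n = 3, adjusted p = 0.0243), but not without 210 min (0.294) or 240 min (0.14). Its 2 spots differed by a median of 0.07 and correlated with r = 0.968 over the 26 arrays.

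BAP3, for a branched-chain amino acid permease, had the highest early mean of the SPS targets after the large pulse. It was at 0.64, 1.25, 0.81 and 0.68 in the early window (mean 0.84 ± 0.28 SD, n = 4 arrays, adjusted p = 0.00963, and 0.0562 without 5 min). BAP3 was at 1.13, 1.34, 0.88 and 0.32 in the middle window (0.92 ± 0.44, n = 4, adjusted p = 0.00411, kept without any single array). With the small pulse it stayed between 0.10 and 0.31 up to 10 min, reached 1.08 at 20 min, and was at -1.33 at 30 min, so that its middle window mean was 0.12 ± 1.10 (n = 4). BAP2, its paralog, was not called in any window: its highest window mean was 0.38 ± 0.50 in the middle window of the large pulse. TAT2, for the tryptophan permease, was not called either, with window means between -0.45 and 0.37.

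TAT1 and GNP1 were called in the late and last windows of the large pulse. TAT1, for a tyrosine and branched-chain amino acid permease whose gene is next to BAP2 on chromosome II, was at 0.87 and 0.57 at 15 and 20 min after the large pulse and at or below -0.50 on all later arrays of that pulse. It was at -0.70, -0.85 and -1.01 in the late window (mean -0.85 ± 0.15 SD, n = 3 arrays, adjusted p = 0.015) and at -0.78, -1.01 and -0.77 in the last (-0.85 ± 0.13, n = 3, 0.0249). With 2 arrays left in the window the late call ended in each case (adjusted p = 0.0657, 0.0819 and 0.0919 without 90, 120 and 150 min). So did the last (0.0756, 0.223 and 0.074 without 180, 210 and 240 min), although the mean stayed between -0.93 and -0.78. In the middle window of the small pulse TAT1 was at -0.62 ± 0.34 (n = 3, adjusted p = 0.038), but adjusted p = 0.136 without 20 min and 0.196 without 30 min. This call also ended with quantile normalization (-0.35, adjusted p = 0.296), array medians set to 0 (-0.58, 0.0516) or array weights (-0.59, 0.0853).

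GNP1, for the high-affinity glutamine permease, was called higher in 5 windows, more than any other of the permease genes, with small changes. On the 14 arrays after the large pulse it lay between 0.14 and 0.74, always above 0. Its window means there were 0.38 ± 0.28, 0.45 ± 0.17, 0.50 ± 0.08 and 0.40 ± 0.09 (SD, n = 4, 4, 3 and 3). It was at 0.47 ± 0.11 in the early window of the small pulse (n = 5, adjusted p = 0.00098). The calls of the middle window of the large pulse (adjusted p = 0.00153) and of the early window of the small pulse held without any single array. Those of the other windows (adjusted p = 0.0081, 0.0079 and 0.0418) did not. The early one ended without 10 min (0.106) and the late one without 90 min (0.0812) or 120 min (0.0628). The last one ended without 180 min (0.0846), 210 min (0.284) or 240 min (0.14). In the middle and late windows of the small pulse its means were 0.01 ± 0.30 and 0.20 ± 0.11 (SD, n = 4 and 3), neither of them called. The value was already 0.18 at 3 min after the large pulse and 0.50 at 2 min after the small one. An offset of the t=0 sample and a change after the pulse therefore cannot be told apart. The middle minus early and late minus middle differences were not called in either pulse.

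DIP5 fell after the small pulse, and GAP1 rose in the middle window after the large one. DIP5, for the glutamate and aspartate permease, was at 0.08, -0.63, -0.91, -1.57 and -1.41 in the early window of the small pulse (mean -0.89 ± 0.66 SD, n = 5 arrays, adjusted p = 0.00345, kept without any single array). DIP5 was at -1.64, -0.43, -0.63 and -0.44 in the middle window (-0.78 ± 0.58, n = 4, adjusted p = 0.0125, and 0.132 without 15 min). After the large pulse it was at -0.11, -0.04, -0.56 and -0.57 early and at -0.17, 0.18, 1.05 and 0.62 in the middle window, which was not called (0.42 ± 0.53). GAP1, for the general amino acid permease and the textbook target of nitrogen catabolite repression, was at 0.17, 0.60, 1.72 and 1.05 in the middle window of the large pulse (0.89 ± 0.66, n = 4, adjusted p = 0.00909, and 0.105 without 30 min). In the small pulse it was at 0.44, 0.16, -0.54, -1.10 and -1.20 early and at -0.85, 0.48, 0.76 and -0.06 in the middle window, and neither window was called. At 10 min GAP1 was thus 1.86 higher after the large pulse than after the small one, the highest difference at a shared time. The lowest was -0.74 at 150 min. Over the 8 shared times GAP1 was higher after the large pulse at 6, with a median difference of 0.95. No difference between the pulses was called for GAP1 in any window.

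UGA4, for the 4-aminobutyrate permease, was called in the middle window of the small pulse alone (mean -0.82 ± 0.37 SD, n = 3 arrays, adjusted p = 0.0147), and not without 15 min (0.0974) or 20 min (0.0871). HIP1, for the histidine permease, was not tested for want of values after the small pulse. After the large pulse it was at 1.16, 0.59, 0.85 and 1.10 early and at 1.57, 1.69, 0.86 and 0.08 in the middle window. SSY1, for the amino acid sensor, had a value on 13 arrays, which ranged from -3.53 to 1.23. PTR2, for the di- and tripeptide permease, was at -1.58, -1.08, -1.44 and 0.20 in the middle window of the small pulse (-0.97 ± 0.81, n = 4, adjusted p = 0.000805, kept without any single array). On the arrays of the same window of the large pulse PTR2 lay between -0.43 and 0.02 and was not called.

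The 3 ammonium permease genes all rose in the middle window of the large pulse, and MEP1 and MEP3 also after the small pulse. MEP1, MEP2 and MEP3 encode the transporters through which yeast takes up ammonium, and Mep2 is also known as a sensor for filamentous growth. MEP3 was at 0.79, 1.06, 1.33 and 1.03 at 15, 20, 30 and 45 min after the large pulse (mean 1.05 ± 0.22 SD, n = 4 arrays, adjusted p = 1.06e-05), the smallest adjusted p among the 37 genes in any window. MEP2 was at 0.44, 0.90, 1.45 and 1.03 (0.96 ± 0.41, n = 4, 0.000314). Both calls held without any single array. MEP1 was at 0.03, 0.61, 0.70 and 0.65 (0.50 ± 0.31, n = 4, adjusted p = 0.0452, but 0.133, 0.156 and 0.132 without 20, 30 or 45 min). With quantile normalization its mean was 0.42 and was not called (adjusted p = 0.206). The lowest and highest MEP1 values after the large pulse lay in the last window, at -0.71 at 210 min and 0.90 at 240 min. MEP3 was already higher in the early window of the large pulse (0.52 ± 0.28, n = 4, adjusted p = 0.00796, but 0.0662 without 7 min and 0.0568 without 10 min).

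Following the small pulse, MEP1 was the ammonium permease gene with the widest swing. It was at 0.45, -0.30, -0.51, -0.41 and -0.58 early and at 0.55, 1.09, 1.36 and 0.75 from 15 to 45 min, so that the early and middle arrays did not overlap. The middle window was higher than t=0 (mean 0.94 ± 0.36 SD, n = 4 arrays, adjusted p = 0.00109) and than the early window (1.21 ± 0.26, SE, adjusted p = 0.01), and both calls held without any single array. Both ended without the 4 arrays that lacked most genes, with larger means (1.09, adjusted p = 0.0528, and 1.36, 0.0746). MEP3 was at 0.89, 1.19, 0.94 and -0.01 in that middle window (0.75 ± 0.53, n = 4, adjusted p = 0.000596, kept without any single array). MEP2 was at -0.07, 0.42, 1.01 and 0.18, which was not called. In both late windows and the last window limma called 0 of these 3 genes, with 1 at an unadjusted p under 0.05 in the late window of the large pulse and 0 in the others.

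**Figure D3:**
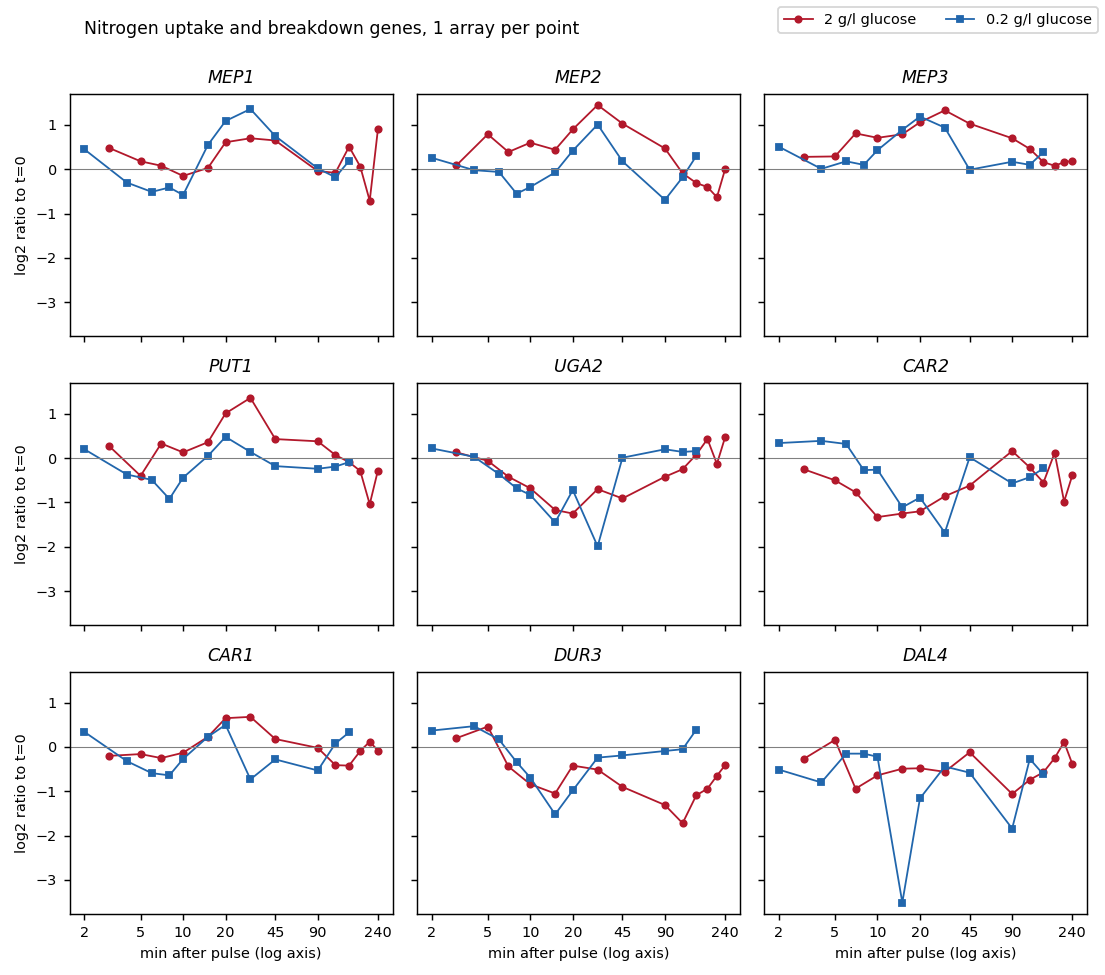
Log2 ratio to t=0 of 9 genes for ammonium uptake, amino acid breakdown and urea and allantoin uptake against min after the pulse (log axis), 1 array per point, circles 2 g/l and squares 0.2 g/l. MEP2, MEP3 and PUT1 are highest at 20 to 30 min, UGA2 and CAR2 are low at 15 to 30 min, and DUR3 is lowest at 120 min after 2 g/l.

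Genes for the use of urea and allantoin, purine breakdown products that serve as poor nitrogen sources, did not move as a block. DUR3, for the urea permease, was at -1.05, -0.42, -0.51 and -0.90 in the middle window of the large pulse (mean -0.72 ± 0.30 SD, n = 4 arrays, adjusted p = 0.0109, and 0.0717 without 15 min). In the late window DUR3 was at -1.31, -1.72 and -1.09 (-1.37 ± 0.32, n = 3, adjusted p = 0.000814, kept without any single array). At 90, 120 and 150 min after the small pulse it was at -0.09, -0.05 and 0.39, above every late array after the large pulse. Before that it had fallen after the small pulse too, with -1.52 and -0.98 at 15 and 20 min. Its middle window mean was -0.73 ± 0.64 (n = 4, adjusted p = 0.0126, but 0.132 without 15 min and 0.066 without 20 min).

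DAL1, DAL4, DAL2, DAL7 and DAL3 lie in this order in a cluster on chromosome IX and encode enzymes and the permease of allantoin use. DAL4, for the allantoin permease, was at -3.51, -1.16, -0.44 and -0.58 in the middle window of the small pulse (mean -1.42 ± 1.42 SD, n = 4 arrays, adjusted p = 0.00183, kept without any single array). DAL2, for allantoicase, was at -2.37 at 15 min there and at -0.62 and 0.38 at 20 and 45 min (-0.87 ± 1.39, n = 3, adjusted p = 0.0243, but -0.12 and 0.698 without 15 min). DAL1, for allantoinase, was called early after the large pulse (-1.02 ± 1.39, n = 4, adjusted p = 0.029) through a value of -3.07 at 10 min, and not without it (-0.34, 0.431). DAL3, for ureidoglycolate lyase, was not called in any window, with values between -0.02 and 0.56 on the 14 arrays after the large pulse. DAL7, for a malate synthase, was not tested, and had values between -0.55 and 0.90 after the large pulse. DAL5, for the allantoate permease and a gene often used as a reporter of nitrogen catabolite repression, was not called in any window, and its values ranged from -0.60 to 0.67 over all 26 arrays.

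DAL4 and DAL2 were lowest at 15 min after the small pulse and DAL1 at 10 min after the large one, on arrays among the 4 with most missing values, and DAL3 at 90 min after the small pulse (-1.92), an array least like its window. DAL1, DAL2, DAL3 and DAL7 each lacked a value on 2 or 3 arrays, among them that of 0.2 g/l at 30 min. Over the 0.2 g/l pulse, 10 of the 37 genes with at least 10 values had their lowest value at 15 min (27.0%), against 12.2% of all such genes. That array lacked 8.31% of the genes, and the part of this in the low values was not tested.

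Among the breakdown genes PUT1 rose, CAR1 and CAR2 changed in opposite directions, and UGA1 and UGA2 fell in the middle window of the large pulse. In proline use, PUT1, for proline oxidase, was at 0.36, 1.01, 1.36 and 0.43 in the middle window of the large pulse (mean 0.79 ± 0.48 SD, n = 4 arrays, adjusted p = 0.000865, kept without any single array). The gene of the next enzyme, PUT2, was at -0.35 ± 0.16 and was not called. PUT1 differed little between its 2 spots (median 0.09, r = 0.961 over 26 arrays). The 2 spots of PUT2 correlated with r = 0.139 and differed by a median of 0.43. Its call in the middle window of the small pulse (-0.78 ± 0.83, n = 4, adjusted p = 0.00224) turned to 0.09 (adjusted p = 0.6) with 1 spot. In arginine use, CAR2, for ornithine aminotransferase, was at -1.25, -1.20, -0.86 and -0.62 in the middle window of the large pulse (-0.98 ± 0.30, n = 4, adjusted p = 0.000785, kept without any single array). CAR1, for arginase, the step before, was at 0.23, 0.65, 0.68 and 0.18 (0.44 ± 0.27, n = 4, adjusted p = 0.0414, but 0.0551, 0.164 and 0.173 without 15, 20 or 30 min). Every CAR1 array of that window lay above 0 and every CAR2 array below.

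CAR2 was also lower in the early window of the large pulse, with -0.25, -0.50, -0.77 and -1.33 (mean -0.71 ± 0.46 SD, n = 4 arrays, adjusted p = 0.0118, and 0.128 without 10 min). For the small pulse it was at 0.34, 0.39, 0.32, -0.27 and -0.26 early and at -1.11, -0.89, -1.68 and 0.02 in the middle window (-0.91 ± 0.71, n = 4, adjusted p = 0.00248, kept without any single array). That middle window call ended without the 4 arrays lacking over 5% of the genes, a fit that left 20 min alone in the window (-0.89). The step between these windows was called (-1.02 ± 0.29, SE, adjusted p = 0.0377). It was not called in 6 of 9 cases with 1 array left out, with adjusted p up to 0.14 without 30 min (0.0701 without 2 min, 0.0836 without 4 min, 0.0897 without 6 min, 0.0608 without 15 min and 0.0706 without 20 min).

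The genes of both enzymes for using 4-aminobutyrate, UGA1 and UGA2, fell in the middle window of the large pulse, while that of the permease, UGA4, was at -0.21 ± 0.28 (n = 4) and was not called. UGA2, for succinate semialdehyde dehydrogenase, was at -1.17, -1.25, -0.70 and -0.91 (mean -1.01 ± 0.25 SD, n = 4 arrays, adjusted p = 0.000827). UGA1, for the transaminase before it, was at -0.82, -0.48, -0.60 and -0.34 (-0.56 ± 0.20, n = 4, adjusted p = 0.00402). Both calls held without any single array. Under the small pulse UGA2 was at -1.45, -0.72, -1.99 and 0.01 in the middle window (-1.04 ± 0.87, n = 4, adjusted p = 0.00119, kept without any single array) and UGA1 was at -0.07 ± 0.47 and was not called. UGA1 was above t=0 in the last window of the large pulse, at 0.67, 0.83 and 0.39 (0.63 ± 0.22, n = 3, adjusted p = 0.0253, but 0.104 without 180 min and 0.27 without 210 min). GDH2, for the NAD-dependent glutamate dehydrogenase, was at -0.58 ± 0.31 in the middle window of the large pulse (n = 4, adjusted p = 0.0151, but 0.0519 without 15 min and 0.104 without 45 min). The 2 spots of GDH2 differed by a median of 0.76 on the 10 arrays where both had a value, with r = -0.027.

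Among the regulators, GLN3, GAT1 and DAL80 were called lower and GZF3 higher, in 5, 2, 2 and 3 of the 7 windows. GLN3 was below 0 on all 24 arrays with a value and was called in 5 windows. These were early, late and last after the large pulse (-0.96 ± 0.52, n = 2, adjusted p = 0.0154, -1.33 ± 0.79, n = 3, 0.000931, and -0.96 ± 0.49, n = 3, 0.0189). The others were early and middle after the small pulse (-0.77 ± 0.27, SD, n = 5, adjusted p = 0.00487, and -0.91 ± 0.28, n = 4, 0.00271). The first ended without 3 min (adjusted p = 0.291) and the last window of the large pulse without 210 min (0.106) or 240 min (0.177), while the other 3 held without any single array. GAT1 was below 0 on all 23 arrays with a value, but was called in no window of the large pulse, where its means lay between -1.01 and -0.56. GAT1 was at -0.98, -3.44, -1.42, -0.80 and -3.55 in the early window of the small pulse (-2.04 ± 1.35, n = 5, adjusted p = 0.000933, kept without any single array). GAT1 was at -3.18, -1.46 and -1.23 in the middle window (-1.96 ± 1.06, n = 3, adjusted p = 0.0059, and 0.09 without 15 min). Neighbouring times thus differed by over 2 log2 units.

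DAL80 was lower early after the large pulse, at -0.94, -0.41 and -1.82 with no value at 10 min (mean -1.06 ± 0.71 SD, n = 3 arrays, adjusted p = 0.00382, and 0.0972 without 7 min). It was also lower in the middle window of the small pulse, at -0.83, -0.77, -0.66 and -0.88 (-0.78 ± 0.09, n = 4, adjusted p = 0.0104, kept without any single array). That call ended with quantile normalization (-0.51, adjusted p = 0.0695). GZF3 was at 0.34, 0.18, 0.46 and 0.43 early after the large pulse (0.35 ± 0.13, n = 4, adjusted p = 0.0105, but 0.0617 without 7 min and 0.0571 without 10 min). In the middle window of the large pulse it was at 0.91, 0.44, 0.67 and 0.44 (0.62 ± 0.22, n = 4, adjusted p = 6.61e-05, kept without any single array). Early after the small pulse it was at 0.38 ± 0.15 (n = 5, adjusted p = 0.0042, kept without any single array). In the other windows its means were 0.35 (late) and -0.12 (last) after the large pulse and 0.10 (middle) and 0.04 (late) after the small one, none of them called. URE2 was not called in any window, with window means between 0.00 and 0.28. GLN3 and GAT1 were below t=0 from the first array of each pulse. The middle minus early and late minus middle differences, in which an offset of a shared t=0 sample cancels, were not called for either gene, so an offset and a lasting fall cannot be told apart.

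**Figure D4:**
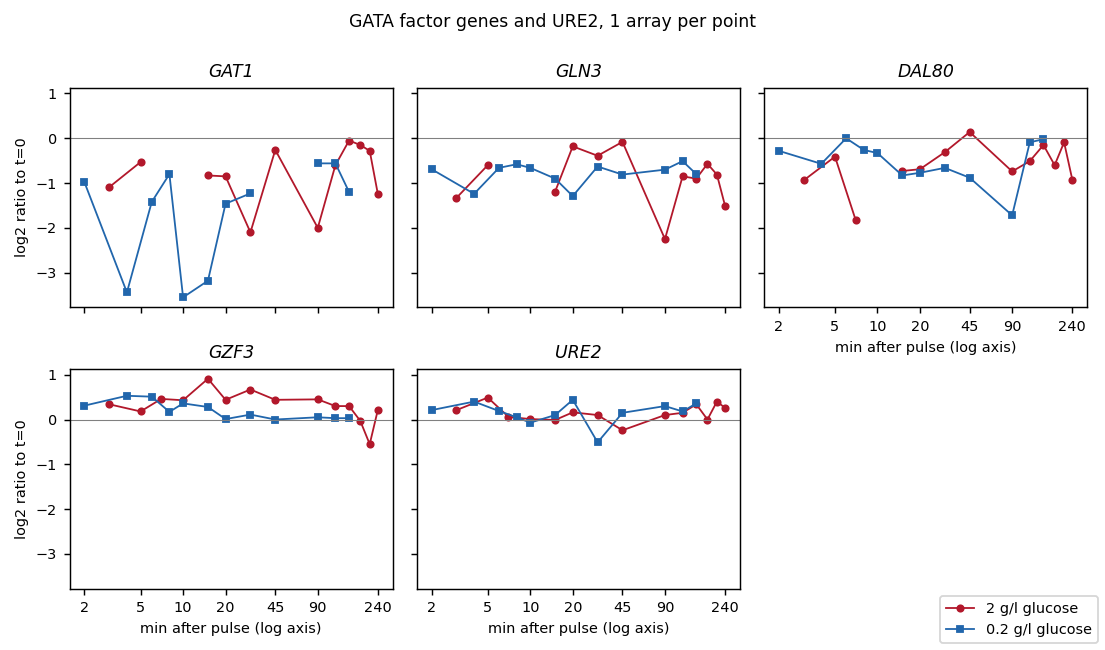
Log2 ratio to t=0 of the 4 GATA factor genes and URE2 against min after the pulse (log axis), 1 array per point, circles 2 g/l and squares 0.2 g/l, with gaps where a value is missing. GAT1 and GLN3 lie below 0 at all times with a value, GZF3 lies above 0 up to 150 min after 2 g/l, and URE2 lies between -0.51 and 0.49.

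The 16 amino acid permeases were set against the 17 nitrogen catabolite genes, that is the genes for ammonium, allantoin and urea transport, for the allantoin enzymes and for amino acid breakdown. The lists were split by function and not by regulation, and the permeases include GAP1, a target of nitrogen catabolite repression. Of these, 15 and 16 were tested, and the counts are read beside the shares of all genes given above. In the early window of the large pulse 4 permeases were higher and 3 lower (median 0.12), against 1 and 2 catabolite genes (median -0.17), with a median of all genes of -0.04 (46.7% and 18.8% called, against 37.6% of all genes). In the middle window 5 permeases were higher and 4 lower (median 0.37), against 5 and 5 catabolite genes (median -0.04) and a median of all genes of -0.03 (60% and 62.5% called, against 43.8%). With the small pulse 2 permeases were higher and 3 lower early (median -0.22), while limma called 0 of the 16 catabolite genes, with 1 at an unadjusted p under 0.05 (median -0.20), against 29.8% of all genes. In the middle window 1 permease was higher and 6 lower (median -0.31), against 2 and 6 catabolite genes (median -0.25) and a median of all genes of -0.13 (46.7% and 50% called, against 39.5%). In the late window of the large pulse the medians were -0.31 for the permeases, with 1 higher and 2 lower, and 0.02 for the catabolite genes, with 1 lower, against 14.5% of all genes called. In the last window they were -0.20, with 1 higher and 2 lower, and 0.10, with 1 higher, against 8.38%. The late window of the small pulse had 0 calls in either list, with 2 and 4 at an unadjusted p under 0.05 (medians -0.08 and -0.02). The difference between the lists was not tested.

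**Figure D5:**
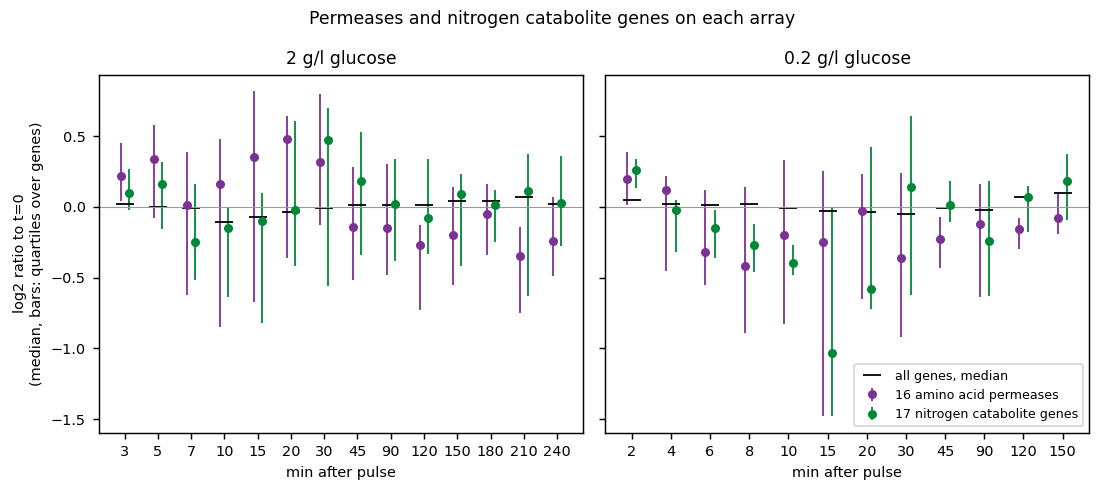
Median log2 ratio to t=0 of the 16 amino acid permeases and the 17 nitrogen catabolite genes on each array, with bars from the lower to the upper quartile over genes, and the median of all genes as a dash. The permease median lies above that of the catabolite genes on the arrays from 3 to 20 min after 2 g/l and below it from 30 min on.

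The pulses were compared window by window (2 g/l minus 0.2 g/l). In the early windows limma called 0 of the 37 genes, with 6 at an unadjusted p under 0.05, against 0.484% of all genes. In the middle windows 4 genes were called (10.8%), all higher after the large pulse, against 14.8% of all genes. They were DIP5 (1.20 ± 0.33, SE, adjusted p = 0.0192), PTR2 (0.83 ± 0.28, 0.0482), GZF3 (0.52 ± 0.15, 0.0205) and GNP1 (0.44 ± 0.15, 0.049). The arrays of the 2 windows did not overlap for DIP5 and GZF3, and did for PTR2 and GNP1. The share of all genes without overlap was not worked out for this or any other comparison. All 4 calls ended with only the 8 arrays compared in the fit, and with the times paired between the pulses (adjusted p = 0.125, 0.212, 0.139 and 0.197). The count was between 1 and 6 without single arrays. DIP5 was not called without 2 g/l at 30 min (adjusted p = 0.0682), GZF3 not without 2 g/l at 15 min (0.0827). PTR2 and GNP1 were not called in 7 and 5 of the 8 cases, with adjusted p up to 0.127 and 0.149.

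In the late windows DUR3 alone was called of the 37 genes, lower after the large pulse (-1.46 ± 0.36, SE, adjusted p = 0.0285), against 3.03% of all genes. This call ended without 2 g/l at 90 min (adjusted p = 0.0984) or 120 min (0.138) or 0.2 g/l at 120 min (0.0533) or 150 min (0.135), and gave adjusted p = 0.0503 with the times paired, while the difference stayed between -1.52 and -1.28. At the 8 times sampled in both pulses, GNP1 and GZF3 were higher after the large pulse at all 8 and UGA1 at 0. AGP1, MEP2 and PUT1 were higher at 7, and PUT4, AGP2, DUR3 and URE2 at 2. These are counts without a test.

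Changes from window to window, in which an offset of a shared t=0 sample cancels, were called for 3 or fewer of the 37 genes, a count that depends on the weighting of the arrays. With array weights limma called 19 from middle to late after the large pulse and 14 in each step after the small one. The shares of all genes below belong to the main fit. Counts from other fits in this paragraph have no such share beside them and only show how far a count moves. From early to middle after the large pulse limma called 0 of 37, with 6 at an unadjusted p under 0.05, against 2.10% of all genes. From middle to late after the large pulse it called 0, with 13 at an unadjusted p under 0.05, against 4.26%. In the small pulse the early to middle step was called for 3 genes (8.11%), against 6.22% of all genes. They were MEP1 and AGP1, which rose, and CAR2, which fell, with the values above, and all 3 calls ended with only the arrays compared in the fit. The middle to late step after the small pulse gave 0 calls, with 10 at an unadjusted p under 0.05, against 1.90% of all genes. Without the array of 45 min after the small pulse the early to middle step had 10 calls, 3 higher and 7 lower, and the middle to late step 8, 5 higher and 3 lower.

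Some of the genes had their highest value of the large pulse at 30 min, and some their lowest at 210 min. Of the 40 genes, 9 had their highest value of the 2 g/l pulse at 30 min (22.5%), against 3.65% of the genes with at least 10 values in the pulse. They were GAP1 (1.72), MEP2 (1.45), PUT1 (1.36), MEP3 (1.33), DIP5 (1.05), DAL7 (0.90), CAN1 (0.70), CAR1 (0.68) and DAL5 (0.67). At 210 min 11 of the 40 had their lowest value (27.5%), against 13.8% of such genes, among them GAP1, MEP2, PUT1, DIP5, DAL7 and CAN1. These times were picked out after the values were seen, and nothing was tested. Following the small pulse the genes with their maximum at 30 min were at 0.76 (GAP1), 1.01 (MEP2), 0.14 (PUT1), 0.94 (MEP3), -0.63 (DIP5), 0.24 (CAN1), -0.73 (CAR1) and 0.64 (DAL5) at 30 min, and DAL7 had no value there.

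Other genes of nitrogen use, from a list of 33 of which 30 were tested, were tested in the same way. Early after the large pulse 6 were higher and 4 lower (33.3%, against 37.6% of all genes), and in the middle window 9 and 4 (43.3%, against 43.8%). GLN1, for glutamine synthetase, was at 1.03 early and 1.52 in the middle window (adjusted p = 0.000165 and 1.05e-06), and GCN4, for the activator of amino acid synthesis genes, at 0.72 and 0.86 (0.000118 and 5.15e-06), all kept without any single array. GAD1, for glutamate decarboxylase, which feeds the 4-aminobutyrate route of UGA1 and UGA2, was at -1.31 early (adjusted p = 0.00553, but 0.106 without 10 min) and -2.41 in the middle window (1.54e-05). OPT1, for an oligopeptide and glutathione transporter, was at 0.85 in the middle window (adjusted p = 0.00129). Early after the large pulse STP1 was at -2.48 from 2 arrays (adjusted p = 0.0158, but -0.26 and 0.841 without 3 min) and DAL81, for an activator shared by the allantoin, 4-aminobutyrate and SPS genes, at -1.02 (0.0263, but 0.312 without 7 min). In the late window 3 were higher and 1 lower (13.3%, against 14.5%), namely GLN1 (0.82, adjusted p = 0.00534, but 0.135 without 90 min), SAM3, for an S-adenosylmethionine permease (0.69, 0.000778), GDH3 (-0.68, 0.00211) and GCN4 (0.61, 0.00238, but 0.055 without 90 min). In the last window limma called 0 of 30, with 6 at an unadjusted p under 0.05, against 8.38% of all genes. With only the early arrays in the fit GAD1, STP1 and DAL81 were not called early (adjusted p = 0.0868, 0.2 and 0.0854), nor were SAM3, SSY5 and PUT3 (0.0887, 0.12 and 0.0707).

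For the small pulse 6 of these 30 genes were higher and 2 lower early (26.7%, against 29.8% of all genes), 4 and 8 in the middle window (40%, against 39.5%), and 1 and 0 in the late window (3.33%, against 7.54%). GCN4 was higher in all 3 windows (0.56, 0.70 and 0.55, adjusted p = 0.000336, 0.000121 and 0.0112), but in the late window not without 120 min (0.0502) or 150 min (0.0993), or with only its own arrays in the fit (0.103). In the early window MUP1, for the methionine permease, was at 0.70 (adjusted p = 0.00661, but 0.0543 without 6 min) and DAL81 at -0.77 (0.038, but 0.0513, 0.229 and 0.0723 without 2, 4 or 8 min). NPR1, for a kinase that stabilizes permeases, was at -0.47 (adjusted p = 0.0416, but 0.103, 0.204 and 0.155 without 6, 8 or 10 min). With only the early arrays in the fit DAL81, NPR1 and GDH3 were not called (adjusted p = 0.0595, 0.0543 and 0.0679). ARO9 and ARO10, for the transaminase and the decarboxylase of aromatic amino acid breakdown, were the lowest in the middle window, at -2.69 and -1.59 (adjusted p = 0.000601 and 0.00202), both kept without any single array. UGA3, for the activator of the UGA genes, was at -1.11 (adjusted p = 0.00475), and DAL81 at -1.15 from 2 arrays (0.0376, but 0.633 without 20 min). In the comparison of the pulses in the middle windows OPT1 (0.99), MUP1 (0.96), PUT3, for the activator of PUT1 and PUT2 (0.72, adjusted p = 0.00571), and GLN1 (0.70) were higher after the large pulse. OPT1, MUP1 and GLN1 lost the call without single arrays (adjusted p up to 0.071, 0.114 and 0.139). With only the arrays compared in the fit all 4 lost it, PUT3 included (adjusted p = 0.125).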

How the data were processed

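Ratios of Cy5 (a time after the pulse) to Cy3 (t=0) were measured on 26 two-colour arrays. The deposited table holds 1 value per spot and array, taken as log2 from the values and from the Cy3 and Cy5 given per the labels. How the authors filtered and centred it is not given in the sources used. Of 10752 spots, 6834 had 1 gene in the platform annotation, 3918 none and 0 several. Symbols were updated through Entrez identifiers to RefSeq names, and spots of a gene were averaged, which gave 5606 genes. In 1165 genes with several spots, 247 disagreed by a median of over 0.5.

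The 5372 genes that had 2 or more values in each window were fitted with limma 3.58.1 in R 4.3.3, with 7 window means over all 26 arrays, eBayes and Benjamini-Hochberg adjustment, two-sided, called under 0.05. Tables and figures were made in Python 3.11.15 with pandas 2.3.3 and matplotlib 3.10.9. The fit was tested on simulated data. The members and lists were chosen with earlier results of these data known. All 40 members were described by class, with values on every array for those called, and up to 4 genes of the largest change per comparison from the list of other nitrogen genes. The number of arrays limits the precision. Alternatives covered normalization, missing values, spots, array weights, the arrays in the fit and the pairing of times. Promoter sequences were not used here.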

Additional observations from a re-analysis of the deposited data

Results flagged for a closer look

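In 6 of 143 windows of 4 or 5 arrays, a gene had 1 array far from the others of its window, where chance gives about 1 in 20. DIP5 was at -1.64 at 15 min after 0.2 g/l, with the other arrays of the middle window between -0.63 and -0.43. AGP3 was at -0.42 at 30 min after 2 g/l, with the others between -0.97 and -0.88. MEP1 was at 0.03 at 15 min after 2 g/l, with the others between 0.61 and 0.70, and at 0.45 at 2 min after 0.2 g/l, with the others between -0.58 and -0.30. PUT2 was at -0.58 at 15 min after 2 g/l, with the others between -0.29 and -0.26. GLN3 was at -1.24 at 4 min after 0.2 g/l, with the others between -0.69 and -0.58.

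In 5 cases limma's test of the difference between the pulses was called. In the middle windows the difference of 2 g/l minus 0.2 g/l was 1.20 for DIP5, 0.83 for PTR2, 0.52 for GZF3 and 0.44 for GNP1, and in the late windows it was -1.46 for DUR3. The labels name no replicate culture for either pulse, so dose and culture cannot be told apart.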

How the results depend on the processing

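Of 78 calls of a gene in a comparison, 37 were kept without every single array of the windows compared, and 23 under every alternative. Over all alternatives 670 gene values kept direction and side of the threshold, 192 kept direction but lost the call, and 1 reversed: PUT2 in the middle window after 0.2 g/l was at 0.09 with 1 spot per gene. The causes of these shifts were not tested. The counts of called genes, of 37 unless stated, moved as follows, with early, middle, late and last standing for the windows against t=0. They are given without the share of all genes in each run and only show how far a count moved. With quantile normalization the 2 g/l counts were 11 (late) and 13 (last), the 0.2 g/l counts 11 (middle) and 9 (late), and the counts between pulses 0 (middle) and 3 (late), with 3 from middle to late after 2 g/l. With only genes measured on all arrays, which left 28 of the 37, they were 3 (2 g/l last), 12 (0.2 g/l middle) and 1 (0.2 g/l middle to late). That run left out TAT1 and GLN3, called in the main fit in both of these windows against t=0. It also left out UGA4, ALP1, DAL2, DAL80 and GAT1, called in the 0.2 g/l middle window. With 1 spot per gene they were 2 (between pulses, late) and 1 (2 g/l middle to late). With array weights they were 19 and 10 (2 g/l late and last), 22 and 10 (0.2 g/l early and late), 3, 7 and 8 (between pulses, early, middle and late), 1 and 19 (2 g/l early to middle and middle to late) and 14 for both steps after 0.2 g/l. With only the arrays compared in the fit, and so fewer arrays behind the spread, they were 1, 11 and 1 (2 g/l early, late and last), 14 and 0 (0.2 g/l early and middle), 0 (between pulses, middle), 9 (2 g/l middle to late) and 0 (0.2 g/l early to middle). With the times shared by both pulses as a block, they were 0 in the middle and 0 in the late windows. The labels give no replicate numbers, so the pairing by time was the paired analysis run, and no replicate number could serve as a block.

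Without single arrays, the counts ranged from 4 to 14, 16 to 18, 3 to 4 and 0 to 2 in the 4 windows after 2 g/l, and from 7 to 11, 13 to 21 and 0 to 0 in the 3 windows after 0.2 g/l. Between pulses they ranged from 0 to 0 (early), 1 to 6 (middle) and 0 to 1 (late), and between windows from 0 to 0 and 0 to 2 after 2 g/l and from 1 to 10 and 0 to 8 after 0.2 g/l. Of the alternatives chosen after seeing the data, which include the fit of the other nitrogen genes on only the arrays compared, leaving out the 0.2 g/l arrays of 30, 45 and 90 min gave 13 and 12 in the early to middle and middle to late steps after 0.2 g/l. Leaving out the 4 arrays that lacked over 5% of the genes gave 9 (0.2 g/l middle), 0 (between pulses, middle), 2 (2 g/l early to middle) and 2 (0.2 g/l middle to late). With 1 array per time and no replicate culture named in the labels, the spread between cultures is unknown.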
